A study of Danio rerio with 12 samples.

Results

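The genes described here are the collagen genes and the genes of the enzymes that hydroxylate collagen chains in zebrafish (Danio rerio) embryos and in libraries labelled sperm. Members were taken by symbol: the col genes with a type and a chain number, the p4ha genes and the plod genes. The family itself was chosen with earlier results of these data known, so the shares of members called below are descriptive. The members number 61 of the 22737 genes in the count table, made up of 54 collagen genes, 4 p4ha genes and 3 plod genes. Their identifiers carry 56 distinct symbols, since 10 identifiers share a symbol with another member; those are told apart here by chromosome.

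RNA was sequenced in 12 libraries, 2 for each of 6 groups. Embryos of the shield stage (6 h after fertilization) came in 4 genotypes. The anp32e null embryos were of strain NHGRI. Maternal null embryos and paternal null embryos were crosses (Tu X NHGRI) named for the parent that was null, and wild type was of strain Tu. A further group received Anp32e protein and was collected at the earlier sphere stage, and the last is labelled sperm of anp32e null fish; the labels give no strain for either. Anp32e is a histone chaperone known for taking the histone variant H2A.Z out of chromatin, and the layout asks what loss of the gene from the mother, the father or both, or extra protein, does to transcript levels. Strain differs with genotype, and stage with injection, so within these pairs the effects cannot be told apart. The shield groups share the label of 6 h, and whether their embryos were equally far in development was not tested.

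Collagens are secreted proteins whose chains wind into a triple helix and assemble into fibrils, sheet-like networks or filaments of the extracellular matrix. Prolyl 4-hydroxylases, whose catalytic alpha subunits are the p4ha genes, modify prolines of the new chains in the endoplasmic reticulum and so make the helix stable at body temperature. Lysyl hydroxylases, the plod genes, modify lysines that later carry sugars or form cross-links. At the shield stage the zebrafish embryo is starting gastrulation and holds RNA laid down by the mother beside RNA from its own genome, while most collagenous tissues (notochord sheath, cartilage, bone, skin) have yet to form.

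Total counts were 13.5 to 47.7 M per library, so that 1 count is worth 0.0210 to 0.0739 CPM (read counts scaled to a common library total). The targeted gene anp32e, from both libraries of each group, stood at 81.2 and 80.5 CPM in null, 1210 and 1230 CPM in maternal null, 1420 and 1410 CPM in paternal null, 979 and 986 CPM in injected sphere embryos, 0.231 and 0.310 CPM in labelled sperm, and 2280 and 3170 CPM in wild type. Within the null, injected, maternal null and paternal null pairs the counts hardly differed beyond sampling noise: their chi-square, divided by its degrees of freedom, was 1.05 to 1.17 over genes with 20 or more counts in the pair. Each such pair was counted as 1 sample by summing its counts. The wild-type libraries (95.2) and the sperm-label libraries (42.9) differed far more and were kept apart. Nothing in the labels says that libraries come from separate clutches, so the p-values measure the spread between these libraries alone. In the shield fit that spread is the one between the wild-type libraries. The fit of all groups adds the spread between the labelled sperm libraries.

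The 2 wild-type libraries differed strongly over all genes (chi-square per degree of freedom 95.2), and the collagen and hydroxylase genes were among them. Of the 61 members, 16 differed more than 2-fold between the wild-type libraries with at least 20 counts in one. Of these 15 were higher in library 1, and the exception was col4a5. The share of all genes past the same rule was not counted, so these counts do not set the members apart. The median ratio of library 1 to library 2 was 1.48 over the members and 1.24 over all genes tested. The largest ratios among these 16 members were 25.3 for col28a1a (47 and 1 counts), 19.9 for p4ha1 and 8.61 for col17a1b. The members' summed level was 284 and 291 CPM in null, 443 and 441 CPM in maternal null, 347 and 341 CPM in paternal null, and 618 and 313 CPM in wild type. The wild-type libraries thus stood further apart than any 2 mutant libraries, and library 2 lay among the mutant values. Genes of early mesoderm differed between them too, in both directions. msgn1 stood at 88.9 and 233 CPM in wild type, with 270 and 257 CPM in null. tbx16 stood at 1300 and 711 CPM in wild type, with 701 and 699 CPM in null. Whether developmental progress differed between these libraries was not tested, and it would bear on every comparison with wild type.

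In null embryos, lost from both parents, 8 of the 57 members tested passed a false discovery rate of 0.05 against wild type (14.0%; over all genes tested, 4.97%). Higher in null were 5 members (8.77%, against 2.23% of all genes): the type XV collagen gene col15a1b, p4ha3, plod2 and the neighbouring type IV collagen genes col4a6 and col4a5. Lower in null were 3 members (5.26%, against 2.74%): p4ha1a, col10a1 on chromosome 20 and col1a1. In maternal null embryos 5 members (8.77%) rose, against 0.567% of all genes in either direction, 0.364% higher and 0.203% lower; they were p4ha3, the type I collagen genes col1a1, col1a1a and col1a2, and col10a1 on chromosome 20. In paternal null embryos 0 members passed in edgeR's quasi-likelihood test and 0 in DESeq2, 8 had an unadjusted p under 0.05, and 0.236% of all genes passed (0.184% higher, 0.052% lower). These comparisons share the wild-type libraries. The embryos are bulk samples, in which fewer cells of a type and less RNA per cell cannot be told apart.

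The members as a list were close to the other genes in their middle. The median log2 fold change over the members tested was -0.34 in null, -0.08 in maternal null and -0.25 in paternal null, each against wild type, and over all genes tested -0.04, -0.02 and -0.02. In null both libraries lay above both wild-type libraries for 19 members (33.3%, against 31.1% of all genes) and below them for 22 (38.6%, against 31.6%). In maternal null the counts were 18 above (31.6%, against 20.7%) and 18 below (31.6%, against 22.4%), and in paternal null 12 above (21.1%, against 22.1%) and 17 below (29.8%, against 22.8%).

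**Figure D1:**
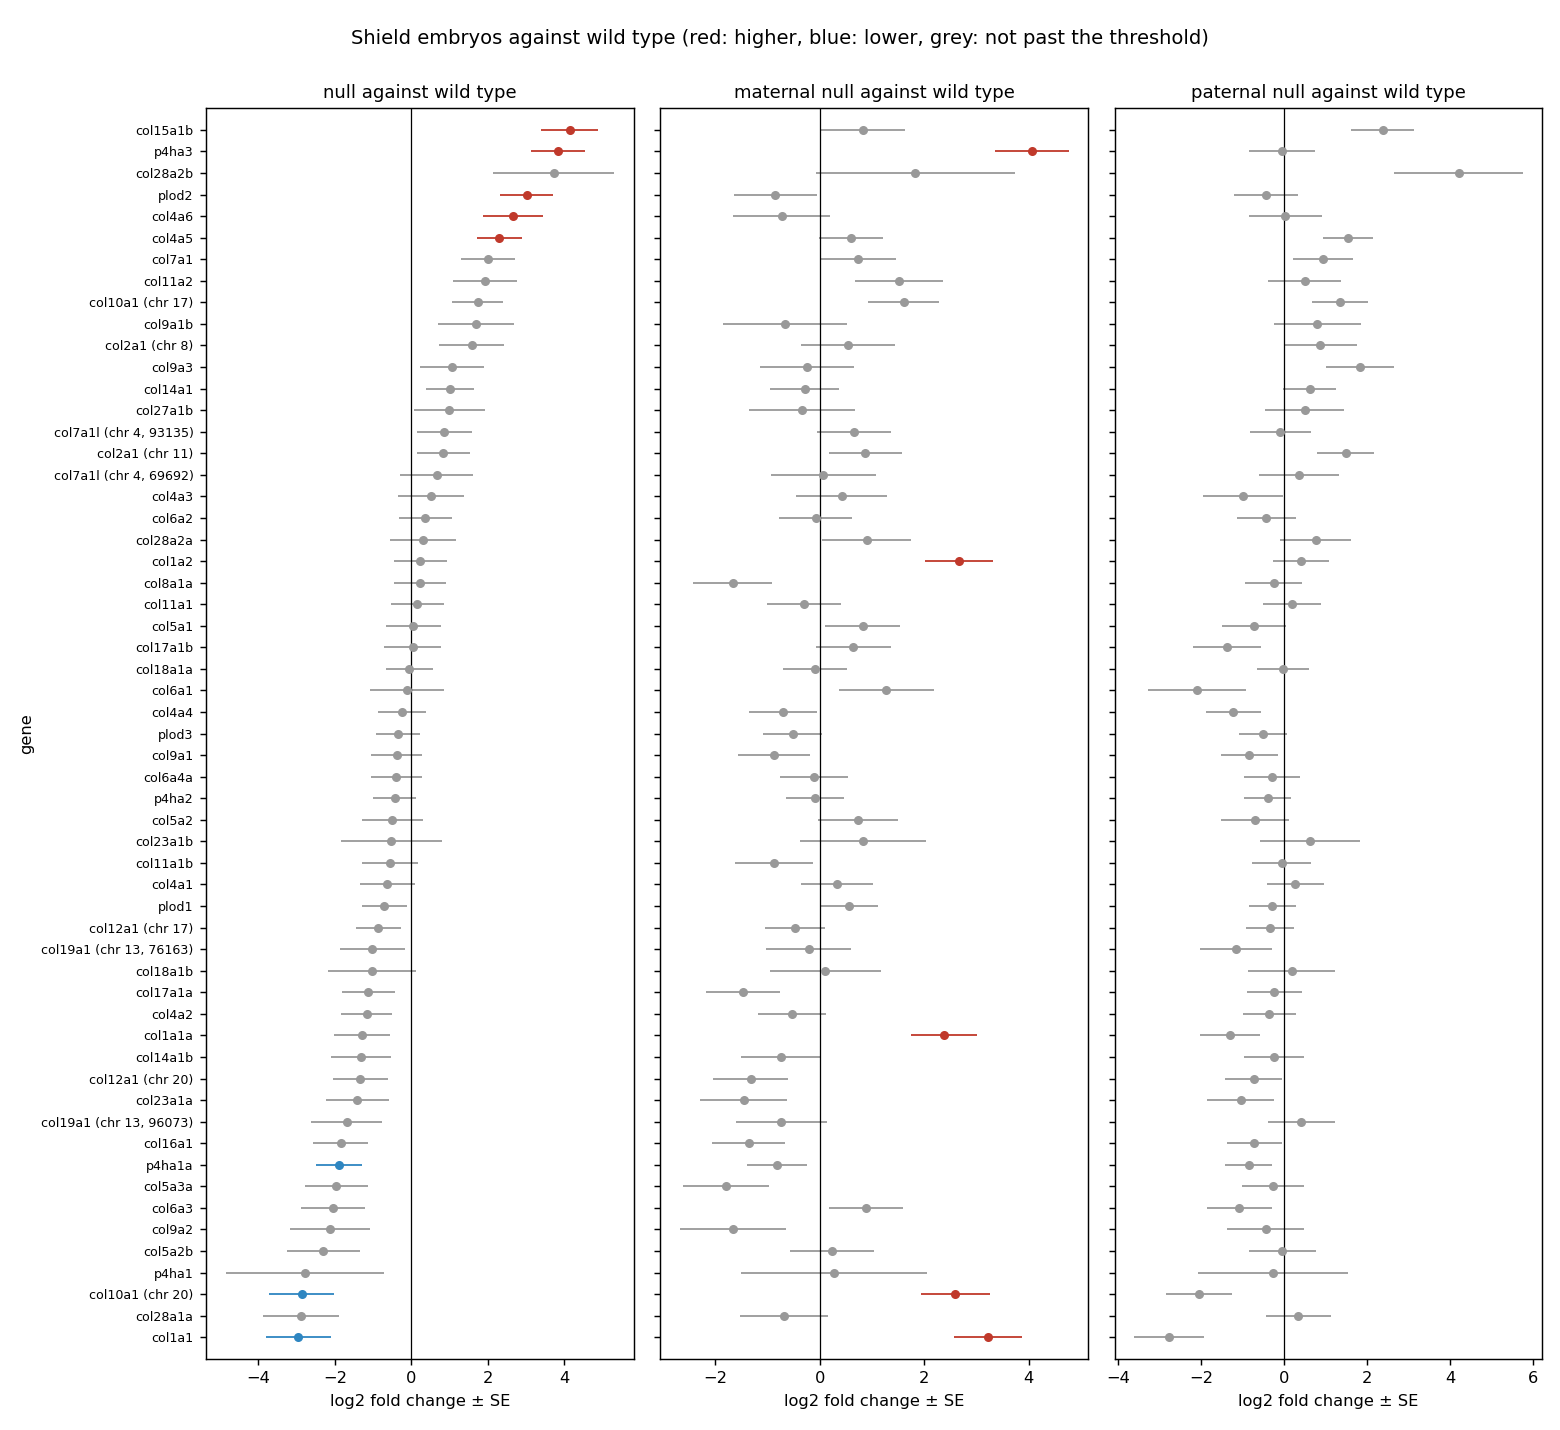
Log2 fold change ± SE of the 57 members tested in null, maternal null and paternal null embryos against wild type, sorted by the null comparison; each mutant group is 1 sample of 2 summed libraries and wild type is 2 libraries. Red points passed the false discovery rate of 0.05 as higher and blue points as lower, 8 members in null, 5 in maternal null and 0 in paternal null.

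Among the prolyl 4-hydroxylase genes, p4ha3 rose in both groups with a null mother, null and maternal null. It stood at 7 and 7.64 CPM in null, 9.35 and 7.76 CPM in maternal null, 0.425 and 0.543 CPM in paternal null, and 0.398 and 0.666 CPM in wild type. All 4 libraries of null and maternal null lay above all 4 of paternal null and wild type. The log2 fold change against wild type was 3.85 ± 0.71 (SE) in null (adjusted p = 1.23e-05) and 4.06 ± 0.71 in maternal null (adjusted p = 1.21e-05), or 14.8- and 17.2-fold in CPM. In paternal null it was -0.05 ± 0.80 (adjusted p = 1). The gene lies on chromosome 15, 14738970 to 14819327, in the coordinates of the deposited table, which are headed Zv10.

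Of the other 3 alpha-subunit genes 1 passed, p4ha1a, and in null only among these 3 comparisons. p4ha1a (chromosome 12, 9504280 to 9547827) stood at 24.6 and 26.9 CPM in null, 54.7 and 53.3 CPM in maternal null, 52.1 and 52.3 CPM in paternal null, and 124 and 73.4 CPM in wild type. Every mutant library lay below both wild-type libraries, and null lowest. It fell by 1.89 ± 0.61 on the log2 scale in null (adjusted p = 0.0404), a call that ended without null library 1 (adjusted p = 0.0675), while the values in maternal null (-0.82 ± 0.57) and paternal null (-0.86 ± 0.57) did not pass (adjusted p = 1 for both). p4ha2 stood at 47.8 and 50.6 CPM in null, 63.6 and 61.2 CPM in maternal null, 51.7 and 48.8 CPM in paternal null, and 76.6 and 59.1 CPM in wild type, with log2 fold changes of -0.43 ± 0.56, -0.09 ± 0.55 and -0.40 ± 0.56 that did not pass.

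p4ha1 on chromosome 17 was the member on which the wild-type libraries disagreed most among those with over 10 CPM. It stood at 9.42 and 9.76 CPM in null, 78.8 and 80.3 CPM in maternal null, 55.5 and 54.2 CPM in paternal null, and 138 and 6.95 CPM in wild type. Null was low and close to wild-type library 2, the crosses were in between, and wild-type library 1 was highest. The log2 fold change in null of -2.78 ± 2.08 did not pass (adjusted p = 0.72); it was 0.38 without wild-type library 1 and -3.70 without library 2, values that were not tested, since the shield fit then keeps no residual degree of freedom. Without null library 1 the same comparison passed, with a nearly unchanged fold change (-2.76) and the same wild-type libraries giving the spread. Its p-value was thus unstable, and the cause was not tested.

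Among the lysyl hydroxylase genes, plod2 rose in null and did not pass in maternal null or paternal null. It stood at 7.12 and 7.59 CPM in null, 0.324 and 0.636 CPM in maternal null, 0.520 and 0.793 CPM in paternal null, and 0.478 and 1.40 CPM in wild type. Both null libraries were above every other shield library, and the remaining groups overlapped. The log2 fold change in null was 3.02 ± 0.70 (adjusted p = 0.0011); DESeq2 gave an adjusted p of 0.0784, and the value was 2.30 without wild-type library 1 and 4.08 without library 2. In maternal null it was -0.85 ± 0.80 and in paternal null -0.44 ± 0.77 (adjusted p = 1 for both).

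plod1 stood at 23.1 and 19.8 CPM in null, 54.2 and 51.2 CPM in maternal null, 29.5 and 28.5 CPM in paternal null, and 64.3 and 11.8 CPM in wild type. All mutant libraries lay between the 2 wild-type libraries, and the log2 fold change in null, -0.70 ± 0.58, turned to 0.80 without wild-type library 1 and -1.42 without library 2. plod3, whose protein also adds sugars to hydroxylysine, stood at 33.0 and 32.0 CPM in null, 28.2 and 29.3 CPM in maternal null, 29.3 and 28.8 CPM in paternal null, and 38.5 and 45.0 CPM in wild type. Its log2 fold changes of -0.34, -0.52 and -0.51 (SE 0.57 each) did not pass.

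**Figure D2:**
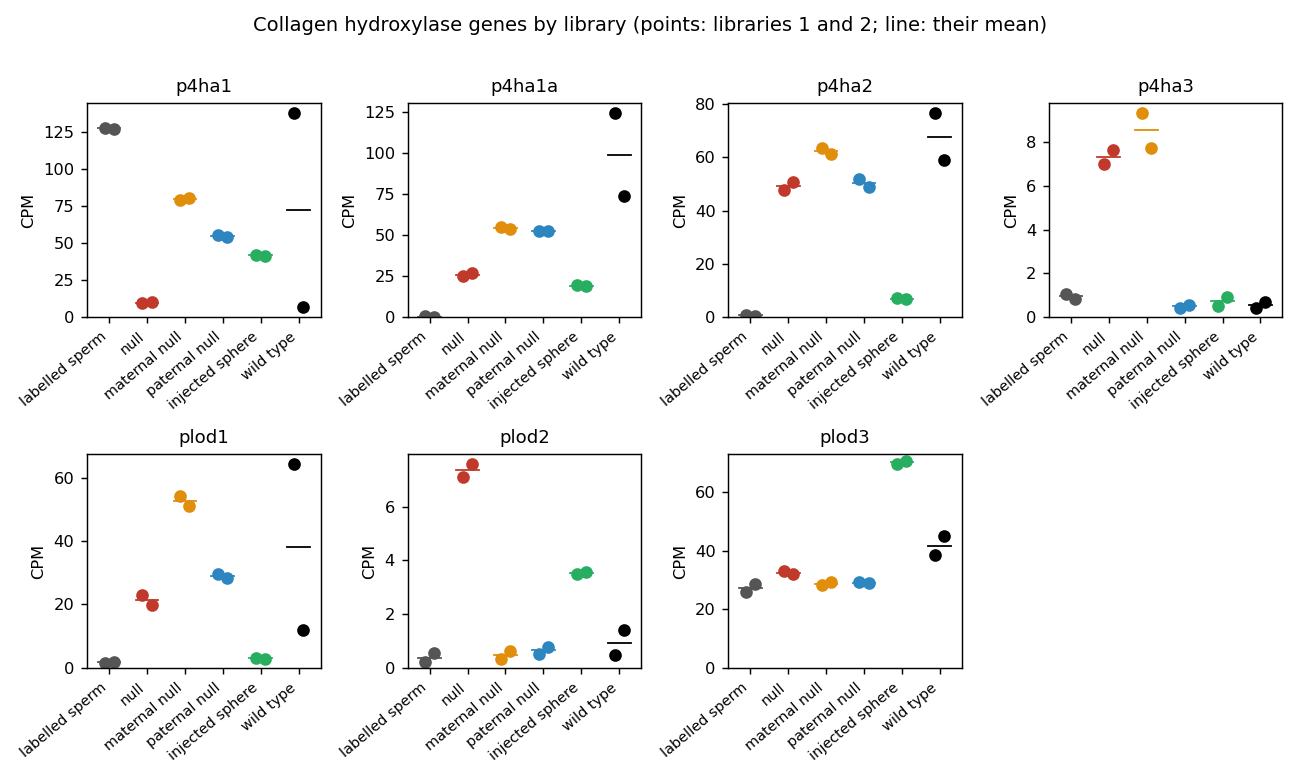
CPM of the 4 p4ha and 3 plod genes in each of the 12 libraries (points) with the group mean (line); each panel has its own scale starting at 0. p4ha3 is at 7 to 9.35 CPM in null and maternal null and at most 1.05 CPM elsewhere, and the 2 wild-type points of p4ha1 stand at 138 and 6.95 CPM.

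Of the 13 fibril-forming collagen genes tested (types I, II, V, XI and XXVII), 3 rose in maternal null, 1 fell in null and 0 passed in paternal null. Over all genes tested, 0.364% rose in maternal null, 2.74% fell in null and 0.236% passed in paternal null. The 3 that rose are the type I genes, whose chains build the fibrils of bone, skin and tendon. col1a1 (chromosome 12, 3060965 to 3098750, where RefSeq's GRCz12tu gene of that base name is col1a1b) stood at 0.233 and 0.189 CPM in null, 14.9 and 16.5 CPM in maternal null, 0.189 and 0.292 CPM in paternal null, and 2.51 and 0.961 CPM in wild type. Maternal null was highest, wild type lay in between, and null and paternal null were lowest, with no overlap between these levels. The log2 fold change against wild type was 3.22 ± 0.65 in maternal null (adjusted p = 0.000463; 3.95 without wild-type library 1), -2.96 ± 0.85 in null (adjusted p = 0.0158; -2.24 without wild-type library 1) and -2.78 ± 0.84 in paternal null (adjusted p = 0.156).

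col1a1a (chromosome 3, 23090498 to 23108910) was also highest in maternal null, with wild type next. It stood at 1.09 and 0.660 CPM in null, 10.9 and 12 CPM in maternal null, 0.850 and 0.918 CPM in paternal null, and 2.75 and 1.77 CPM in wild type. The rise in maternal null was 2.38 ± 0.64 (adjusted p = 0.0404), a call that ended in DESeq2 (adjusted p = 0.321) and without maternal null library 2 (adjusted p = 0.0627). The values of -1.29 ± 0.73 in null (adjusted p = 0.407) and -1.31 ± 0.73 in paternal null (adjusted p = 1) did not pass.

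col1a2, the gene of the alpha 2 chain (chromosome 19, 41396100 to 41415860), stood at 1.79 and 1.84 CPM in null, 9.35 and 10.1 CPM in maternal null, 2.36 and 1.75 CPM in paternal null, and 2.03 and 1.11 CPM in wild type. Maternal null stood above the rest, and both null libraries lay between the wild-type libraries. Its rise in maternal null was 2.67 ± 0.65 (adjusted p = 0.0122, and 0.173 in DESeq2), against 0.24 ± 0.69 in null and 0.41 ± 0.68 in paternal null, neither past the threshold. The 3 type I genes together summed to 3.11 and 2.69 CPM in null, 35.1 and 38.6 CPM in maternal null, 3.40 and 2.96 CPM in paternal null, and 7.28 and 3.85 CPM in wild type.

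The type II genes, known for cartilage and the notochord sheath, did not pass in any shield comparison. col2a1 on chromosome 11 (RefSeq col2a1b) stood at 2.37 and 1.89 CPM in null, 2.22 and 2.21 CPM in maternal null, 2.98 and 3.71 CPM in paternal null, and 1.43 and 1.04 CPM in wild type. col2a1 on chromosome 8 (RefSeq col2a1a) stood at 1.28 and 0.943 CPM in null, 0.378 and 0.679 CPM in maternal null, 0.614 and 0.751 CPM in paternal null, and 0.398 and 0.370 CPM in wild type. All mutant libraries of the chromosome 11 gene lay above wild type, by 0.84 ± 0.70, 0.87 ± 0.70 and 1.48 ± 0.69 on the log2 scale in null, maternal null and paternal null.

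Of the 3 short-chain collagen genes tested (types VIII and X), col10a1 on chromosome 20 rose in maternal null and fell in null. Type X collagen is a network-forming collagen of hypertrophic cartilage, and in zebrafish it is also made by bone-forming cells. This gene (494769 to 498370, RefSeq col10a1b) stood at 0.195 and 0.236 CPM in null, 9.84 and 9.46 CPM in maternal null, 0.283 and 0.459 CPM in paternal null, and 2.59 and 0.666 CPM in wild type. The order was that of col1a1: maternal null, then wild type, then paternal null and null. It rose by 2.60 ± 0.66 in maternal null (adjusted p = 0.0186, and 0.535 in DESeq2; the fold change was 3.76 without wild-type library 1) and fell by 2.87 ± 0.86 in null (adjusted p = 0.0235, 0.117 in DESeq2 and 0.0558 without null library 1; the fold change was -1.71 without wild-type library 1).

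col10a1 on chromosome 17 (RefSeq col10a1a) did not share that order. It stood at 3.77 and 4.24 CPM in null, 3.68 and 3.65 CPM in maternal null, 3.07 and 3.05 CPM in paternal null, and 1.55 and 0.887 CPM in wild type. All 6 mutant libraries lay above both wild-type libraries, by 1.74 ± 0.67, 1.61 ± 0.68 and 1.35 ± 0.68 on the log2 scale, and none of these passed (adjusted p = 0.12, 0.824 and 1). col8a1a stood at 3.42 and 3.44 CPM in null, 0.919 and 0.933 CPM in maternal null, 2.17 and 2.75 CPM in paternal null, and 2.59 and 3.40 CPM in wild type, lowest in maternal null without passing (-1.67 ± 0.76, adjusted p = 0.98).

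**Figure D3:**
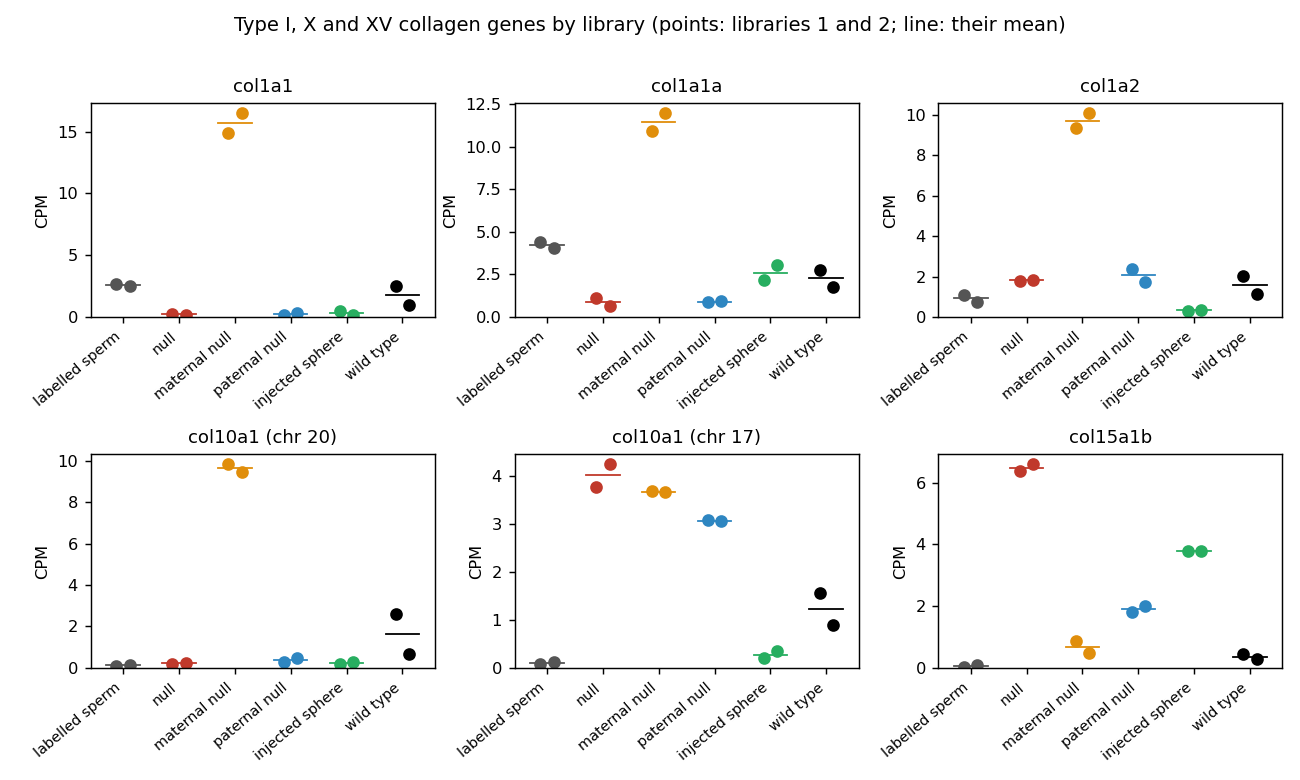
CPM of the type I, X and XV collagen genes in each library (points) with the group mean (line); each panel has its own scale starting at 0. The type I genes and col10a1 on chromosome 20 are highest in maternal null (9.35 to 16.5 CPM), and col15a1b is highest in null (6.38 and 6.60 CPM).

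Type IV collagen forms the sheet of basement membranes, and 2 of its 6 genes rose in null, where 2.23% of all genes did. In maternal null and paternal null 0 passed, where 0.567% and 0.236% of all genes did. col4a5 and col4a6 are neighbours on chromosome 7, with 730 bases between col4a6 (50645636 to 50827420) and col4a5 (50828151 to 50919360). col4a5 stood at 19.8 and 20.7 CPM in null, 7.14 and 5.47 CPM in maternal null, 12.1 and 11.7 CPM in paternal null, and 2.71 and 5.47 CPM in wild type. Null was highest, paternal null next, and maternal null library 2 tied with wild-type library 2. The rise in null was 2.31 ± 0.60 (adjusted p = 0.00594; 3.05 without wild-type library 2), and 1.54 ± 0.61 in paternal null did not pass (adjusted p = 0.519).

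col4a6 stood at 2.53 and 3.11 CPM in null, 0.324 and 0.212 CPM in maternal null, 0.283 and 0.584 CPM in paternal null, and 0.517 and 0.370 CPM in wild type. Both null libraries stood above the other 6 shield libraries, and both maternal null libraries lay below wild type. It rose in null by 2.67 ± 0.79 (adjusted p = 0.0215, and 0.323 in DESeq2).

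The other 4 type IV genes did not pass in any shield comparison. col4a1 stood at 1.32 and 1.27 CPM in null, 2.60 and 2.54 CPM in maternal null, 2.55 and 2.34 CPM in paternal null, and 2.98 and 1.18 CPM in wild type. Its neighbour col4a2 stood at 4.44 and 3.35 CPM in null, 5.84 and 6.32 CPM in maternal null, 6.90 and 6.89 CPM in paternal null, and 12.1 and 6.29 CPM in wild type. For both genes null was the lowest mutant group, with log2 fold changes against wild type of -0.63 ± 0.72 for col4a1 and -1.16 ± 0.67 for col4a2.

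The genes col4a4 (36093918 to 36197432) and col4a3 (36196894 to 36254825) overlap at their ends on chromosome 15. Counting could assign reads of that short stretch to either. col4a3 stood at 0.778 and 0.755 CPM in null, 0.703 and 0.721 CPM in maternal null, 0.378 and 0.167 CPM in paternal null, and 0.836 and 0.222 CPM in wild type. col4a4 stood at 8.68 and 9.06 CPM in null, 5.79 and 6.87 CPM in maternal null, 4.44 and 4.42 CPM in paternal null, and 14.5 and 7.17 CPM in wild type. Paternal null was the lowest group for both by its mean, and null lay between the wild-type libraries.

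**Figure D4:**
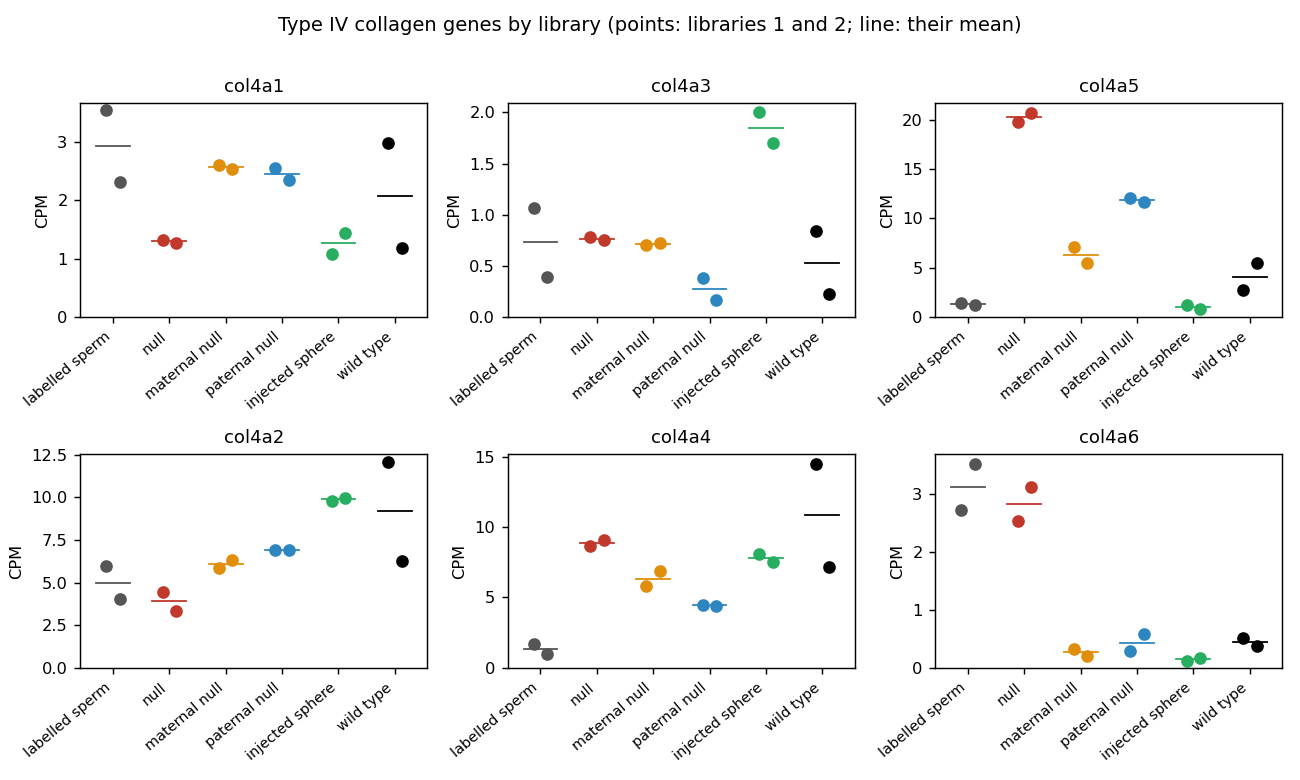
CPM of the 6 type IV collagen genes in each library (points) with the group mean (line), genomic neighbours one above the other; each panel has its own scale starting at 0. col4a5 and col4a6 are higher in null than in the other shield groups, at 19.8 and 20.7 CPM and at 2.53 and 3.11 CPM.

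Types XV and XVIII are multiplexins, found in basement membrane zones and known for C-terminal fragments such as endostatin. col15a1b (chromosome 2, 24281302 to 24357609) stood at 6.38 and 6.60 CPM in null, 0.865 and 0.467 CPM in maternal null, 1.80 and 2.00 CPM in paternal null, and 0.438 and 0.296 CPM in wild type. Null was highest, paternal null next, and maternal null lay just above wild type. The rise in null was the largest among the 8 members called there, 4.15 ± 0.74 on the log2 scale or 16.7-fold in CPM (adjusted p = 6.21e-06). The values of 2.38 ± 0.76 in paternal null (adjusted p = 0.202) and 0.82 ± 0.81 in maternal null (adjusted p = 1) did not pass.

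col18a1a stood at 9.34 and 10.7 CPM in null, 9.68 and 9.76 CPM in maternal null, 10.5 and 9.81 CPM in paternal null, and 13.6 and 7.84 CPM in wild type. All 6 mutant libraries lay between the wild-type libraries, with log2 fold changes of -0.05, -0.09 and -0.03 (SE 0.62 each).

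Of the 11 genes tested of the FACIT class (fibril-associated collagens with interrupted triple helices), 0 passed in null, maternal null or paternal null. Over all genes tested 4.97%, 0.567% and 0.236% passed, so 0 calls do not set a class of this size apart. The median log2 fold change of the FACIT genes was -1.02 in null, -0.74 in maternal null and -0.35 in paternal null. col12a1 on chromosome 17 stood at 18.0 and 18.5 CPM in null, 24.5 and 23.4 CPM in maternal null, 26.3 and 25.7 CPM in paternal null, and 40.2 and 28.2 CPM in wild type. col12a1 on chromosome 20 stood at 1.56 and 1.98 CPM in null, 1.73 and 1.78 CPM in maternal null, 2.74 and 2.55 CPM in paternal null, and 4.38 and 4.58 CPM in wild type. For both copies every mutant library lay below wild type; the log2 fold changes in null, -0.86 ± 0.59 for the chromosome 17 copy and -1.33 ± 0.72 for the other, did not pass (adjusted p = 0.558 and 0.367).

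Among the other FACIT genes, col16a1 stood at 2.41 and 1.41 CPM in null, 2.43 and 3.01 CPM in maternal null, 4.30 and 4.30 CPM in paternal null, and 8.04 and 6.43 CPM in wild type. Its value in null was -1.84 ± 0.72 (adjusted p = 0.121, and 0.0392 without null library 1). col9a1 stood at 3.77 and 3.82 CPM in null, 2.76 and 2.63 CPM in maternal null, 2.50 and 3.01 CPM in paternal null, and 6.05 and 4.14 CPM in wild type. For these 2 genes too every mutant library was below wild type. col14a1 ran the other way in null, at 7.35 and 9.39 CPM in null, 3.68 and 3.05 CPM in maternal null, 6.95 and 5.68 CPM in paternal null, and 4.34 and 3.99 CPM in wild type, with 1.02 ± 0.63 in null (adjusted p = 0.472).

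Among the remaining classes, 0 of 7 beaded-filament genes (types VI and XXVIII), 0 of 3 anchoring-fibril genes (type VII) and 0 of 4 transmembrane collagen genes passed in null, maternal null or paternal null. With 4.97%, 0.567% and 0.236% of all genes passing, 0 calls do not set classes of this size apart. The beaded-filament gene col6a4a stood at 3.66 and 3.30 CPM in null, 4.22 and 4.28 CPM in maternal null, 3.17 and 4.30 CPM in paternal null, and 8 and 1.70 CPM in wild type, with the mutant libraries between the wild-type ones. col17a1a, a transmembrane collagen of epidermal hemidesmosomes, stood at 2.8 and 2.69 CPM in null, 1.89 and 2.38 CPM in maternal null, 4.87 and 5.22 CPM in paternal null, and 5.77 and 6.36 CPM in wild type. The mutant libraries of col17a1a were below wild type, with -1.12 ± 0.69, -1.47 ± 0.71 and -0.24 ± 0.66 in null, maternal null and paternal null, none past the threshold. The genes col19a1 on chromosome 13 and col7a1l on chromosome 4 each appear under 2 identifiers, matched by name and chromosome to 1 RefSeq gene. Those of col7a1l overlap, so their split of reads is uncertain. Those of col19a1 lie 134781 bases apart, and whether they are 1 gene was not tested.

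Many members were near the limit of detection. In all 12 libraries 7 members stayed under 1 CPM (col5a3b, col8a1, col8a2, col9a1b, col9a2, col18a1b and col21a1), and 13 did so in all 8 shield libraries, while 13 reached 10 CPM in at least 1 shield library. The 4 members too low to be tested among shield embryos were col5a3b, col8a1, col8a2 and col21a1.

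**Figure D5:**
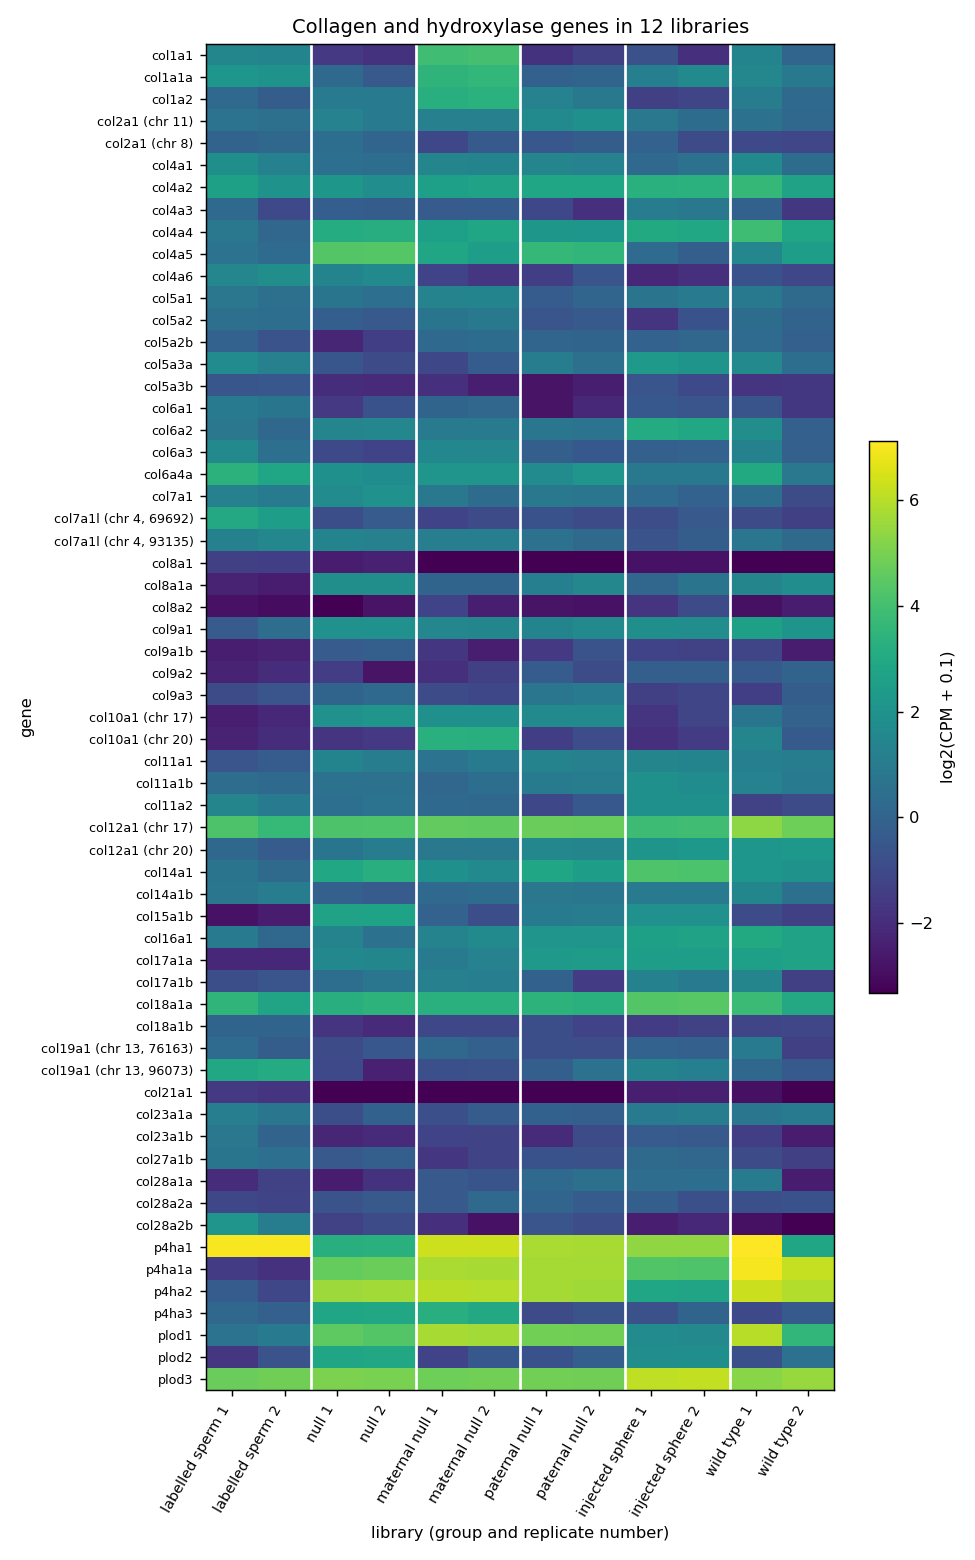
Level of each of the 61 members (rows) in the 12 libraries (columns), as the log2 of CPM plus 0.1; white lines separate the groups, and a gene listed under 2 identifiers carries the chromosome and, where needed, the last digits of its identifier. The 2 columns of null, maternal null, paternal null and injected sphere look alike within each group, while the wild-type columns differ, as for p4ha1 (138 and 6.95 CPM).

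The reciprocal crosses join the same strains and differ in which parent was null. The strain of the egg differs with the null parent, so these effects cannot be told apart here. Higher in maternal null than in paternal null were 4 of 57 members (7.02%, against 0.491% of all genes in either direction and 0.307% higher), and 0 were lower (0.184% of all genes). They were col1a1 (6 ± 0.97 on the log2 scale, adjusted p = 8.53e-07), col10a1 on chromosome 20 (4.66 ± 0.92, adjusted p = 0.000268), p4ha3 (4.11 ± 0.88, adjusted p = 0.00149) and col1a1a (3.69 ± 0.85, adjusted p = 0.00493). For each of them both maternal null libraries lay above both paternal null libraries, as they did for 36.2% of all genes tested. col1a2 did not pass (2.26 ± 0.80, adjusted p = 0.423). These 4 calls held in DESeq2 and without each mutant library in turn. Leaving out 1 library of a summed, near-identical pair mostly lowers its depth, so the latter says little about the spread between samples. Over the 57 members the median was -0.06, and -0.00 over all genes tested.

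Null and maternal null embryos both had null mothers and differ in the father and in strain. Between them 5 of 57 members passed (8.77%, against 1.08% of all genes; 0.274% higher and 0.803% lower). Lower in null than in maternal null were col1a1 (-6.19 ± 0.98, adjusted p = 4.1e-07; 74.1-fold in CPM), col10a1 on chromosome 20 (-5.47 ± 0.97, adjusted p = 1.25e-05; 45.2-fold) and col1a1a (-3.68 ± 0.85, adjusted p = 0.00358; 12.8-fold). Higher in null were plod2 (3.87 ± 0.90, adjusted p = 0.00365) and col15a1b (3.33 ± 0.88, adjusted p = 0.0189), at 14.7- and 10.1-fold, calls that ended in DESeq2 (adjusted p = 0.115 and 0.187); that of col15a1b also ended without maternal null library 2 (0.0839). p4ha3 was close in both groups (-0.21 ± 0.75, adjusted p = 1), and col4a6 did not pass (3.40 ± 1, adjusted p = 0.0559) except without maternal null library 1 (3.71, adjusted p = 0.0495). p4ha1 did not pass either (-3.05 ± 2.24, adjusted p = 0.934). It passed without null library 1, again with a nearly unchanged fold change (-3.03).

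Whether a null mother had a different effect when the father was also null was tested as the interaction of both parents' genotypes. In edgeR's quasi-likelihood test 0 of 57 members passed, as in DESeq2, with 0.317% of all genes passing (0.113% higher, 0.203% lower) and 8 members at an unadjusted p under 0.05. The nearest was plod2 (4.31 ± 1.18, adjusted p = 0.0727), which passed without maternal null library 2 (4.93, adjusted p = 0.0406). The interactions of col1a1 and col10a1 on chromosome 20 were -3.41 ± 1.19 and -3.41 ± 1.17 (adjusted p = 0.415 and 0.389).

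Other genes moved with these members, and their part in the results was not tested. A list of 13 heat shock genes was chosen to stand beside the maternal null results, with earlier results of these data known. Its counts are therefore no test. Against wild type 7 rose in maternal null (median log2 fold change 2.95), 4 rose in null (median 1.83) and 0 passed in paternal null (median 0.34). Over all genes tested, 0.364% rose in maternal null, 2.23% in null and 0.184% in paternal null. The gene hsp70l stood at 1.40 and 1.51 CPM in null, 19.4 and 19.6 CPM in maternal null, 0.472 and 0.334 CPM in paternal null, and 0.318 and 0.0739 CPM in wild type. Of 17 enveloping-layer markers, the keratins and other genes of the embryo's surface epithelium, 6 rose in null, 1 in maternal null and 1 in paternal null (medians 1.56, 0.34 and 1.71). Their summed level was 11300 CPM in both null libraries, 4950 and 4970 CPM in maternal null, 14400 CPM in both paternal null libraries, and 5850 and 2720 CPM in wild type.

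Among 11 yolk syncytial layer markers 5 rose in null (summed level 549 and 562 CPM, against 234 and 189 CPM in wild type), and 0 passed in maternal null or paternal null. None of 7 notochord markers passed in these 3 comparisons, and of 8 paraxial mesoderm markers tbx6 alone rose, in null. In a fibroblast and skin list of 8 genes tested, twist1a rose and both postn genes fell in null, and 0 passed in maternal null or paternal null. The 5 testis somatic and 2 blood markers tested gave 0 calls in these 3 comparisons, and of 10 sperm markers gapdhs fell in null. Of all genes tested, 2.23% rose and 2.74% fell in null, and 0.567% and 0.236% passed in maternal null and paternal null.

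Of 29 genes of chain folding and modification, the partners of the hydroxylases, 2 rose in null (4.97% of all genes passed there in either direction), 0 fell, and 0 passed in maternal null or paternal null (medians 0.15, 0.00 and -0.05). The 2 were colgalt2b, a collagen galactosyltransferase gene (3.70 and 3.54 CPM in null, against 0.438 and 0.370 CPM in wild type; 3.19 ± 0.76, adjusted p = 0.00193), and 1 of the 2 genes of the collagen chaperone Hsp47, serpinh1 ENSDARG00000075954 (41.8 and 39.1 CPM in null, against 8 and 8.13 CPM in wild type; 2.36 ± 0.57, adjusted p = 0.00219). This serpinh1 gene had 27.4 and 29.4 CPM in maternal null without passing (1.84 ± 0.57, adjusted p = 0.146). The beta subunit that pairs with p4ha chains, p4hb, did not pass in these comparisons, at 1120 and 1100 CPM in null, 1320 and 1320 CPM in maternal null, 1450 and 1470 CPM in paternal null, and 1590 and 1210 CPM in wild type.

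Of 28 genes of collagen secretion, cleavage and cross-linking, loxl2a, a lysyl oxidase-like gene, rose in null (18.7 CPM in both null libraries, against 2.87 and 1.55 CPM in wild type; 3.12 ± 0.62, adjusted p = 7.88e-05). The collagenase gene mmp13a rose in maternal null (7.79 and 7.17 CPM, against 1.75 and 0.0739 CPM in wild type; 3.02 ± 0.68, adjusted p = 0.00372). The collagen-binding gene sparc was higher in maternal null than in paternal null (4.81 and 4.79 CPM, against 0.283 and 0.501 CPM, with 3.58 ± 0.90, adjusted p = 0.0194), as was mmp13a (3.86 ± 0.90, adjusted p = 0.00571). Of all genes tested, 2.23% rose in null, 0.364% rose in maternal null and 0.307% were higher in maternal null than in paternal null.

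Among 27 basement membrane and matrix partners 1 rose in null, nid2, whose product nidogen binds type IV collagen and laminin (117 and 121 CPM, against 28.1 and 42.9 CPM in wild type; 1.74 ± 0.53, adjusted p = 0.0271). Of 14 collagen receptor genes, itga10 rose and itga2.3 fell in null (1.85 ± 0.57 and -5.87 ± 1.05, adjusted p = 0.0308 and 5.75e-06). Of 16 regulators, sox5 and twist1a rose and the bone regulator sp7 fell in null (-2.46 ± 0.66, adjusted p = 0.00876; 5.99 and 4.86 CPM, against 36.3 and 25.9 CPM in wild type). Apart from mmp13a, 0 genes of these 4 lists passed in maternal null or paternal null against wild type. Of all genes tested, 2.23% rose and 2.74% fell in null.

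In sphere-stage embryos injected with Anp32e protein, 14 of 61 members passed against shield-stage wild type (23.0%), fewer in share than all genes (28.7%). Higher were 3 members (4.92%, against 15.8% of all genes) and lower were 11 (18.0%, against 12.9%). The count was 23 members without wild-type library 1 and 25 without library 2, while over all genes 11684 and 10629 then passed, against 6514 with both. Stage and injection cannot be told apart here, and no uninjected sphere embryos were analysed. Of 29 folding genes 6 were higher and 6 lower, and of 17 enveloping-layer markers 13 were lower (summed level 1300 and 1310 CPM, against 5850 and 2720 CPM in wild type).

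Hydroxylase genes made up 3 of the 11 lower members. plod1 had 3.20 and 2.92 CPM in injected embryos, against 64.3 and 11.8 CPM in wild type (-3.94 ± 0.82, adjusted p = 0.00693). p4ha2 had 7.02 and 6.75 CPM, against 76.6 and 59.1 CPM in wild type (-3.67 ± 0.49, adjusted p = 0.00125). p4ha1a had 19.3 and 18.7 CPM, against 124 and 73.4 CPM in wild type (-2.73 ± 0.43, adjusted p = 0.00218). In all 3 both injected libraries lay below both wild-type libraries, as they did for 27.1% of all genes tested. p4ha1 (41.8 and 41.4 CPM in injected embryos) lay between the wild-type libraries and turned from -1.07 ± 1.40 (adjusted p = 0.6) to 2.05 without wild-type library 1. p4ha3 (0.499 and 0.914 CPM), plod2 (3.49 and 3.57 CPM) and plod3 (69.5 and 70.7 CPM) did not pass. Their log2 fold changes were 0.09 ± 0.60, 1.60 ± 0.69 and 0.35 ± 0.37. For plod2 the value was 2.63 without wild-type library 2. CPM leaves out the TMM scaling between libraries that the tests use. Its factor over all libraries was 1.26 in both injected libraries, against 1.04 and 0.861 in wild type. Ratios of CPM of injected over wild type therefore run above the tested changes.

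Of the collagen genes lower in injected embryos, col10a1 on chromosome 20 had 0.166 and 0.261 CPM (-3.31 ± 0.78, adjusted p = 0.0116), col1a1 had 0.499 and 0.174 CPM (-2.72 ± 0.63, adjusted p = 0.0111) and col1a2 had 0.291 and 0.348 CPM (-2.67 ± 0.61, adjusted p = 0.0105). The third type I gene, col1a1a, had 2.16 and 3.05 CPM in injected embryos and overlapped with wild type (-0.18 ± 0.46, adjusted p = 0.79). The remaining lower members were col10a1 on chromosome 17, col4a5 (1.16 and 0.783 CPM), col5a2, col8a1a and col12a1 on chromosome 17, at -2.52 to -1.62 on the log2 scale. The call of col8a1a ended in DESeq2 (adjusted p = 0.0923), without injected library 1 (0.083) and without either labelled sperm library (0.116 and 0.115), and that of col12a1 without either labelled sperm library (0.0575 and 0.0567).

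The 3 members higher in injected embryos were col15a1b, col11a2 and col14a1. col15a1b had 3.78 and 3.79 CPM, against 0.438 and 0.296 CPM in wild type (2.96 ± 0.53, adjusted p = 0.00353). col11a2, a chain of the thin fibrils of cartilage, had 3.70 CPM in both injected libraries, against 0.318 and 0.444 CPM in wild type (2.96 ± 0.56, adjusted p = 0.00458). col14a1 had 18.6 and 17.9 CPM, against 4.34 and 3.99 CPM in wild type (1.75 ± 0.41, adjusted p = 0.0116). The injected values of col18a1a (20.1 and 21.2 CPM), col4a2 (9.81 and 9.97 CPM) and col2a1 on chromosome 11 (1.70 and 1.18 CPM) did not pass. For col18a1a the log2 fold change was 0.87 without wild-type library 1.

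The libraries labelled sperm differed from null shield embryos in 29 of 61 members (47.5%), below the share over all genes (60.5%). Higher were 14 members (23.0%, against 30.0% of all genes) and lower were 15 (24.6%, against 30.5%); without labelled sperm library 1, 17 members passed. The label was set beside markers: 6 of the 10 sperm and late spermatid genes found were higher in labelled sperm than in null. Apart from gapdhs, the highest of the 10 in labelled sperm was spata18, at 4.86 and 6.14 CPM. The summed level of the 10 was 30.4 and 33.9 CPM in labelled sperm, 7.98 and 6.41 CPM in null, and 41.5 and 11.1 CPM in wild-type embryos. Of these sums gapdhs alone made up 11.4 and 11.7 CPM in labelled sperm, 0.778 and 0.896 CPM in null, and 31.6 and 1.77 CPM in wild type. Testis somatic markers summed to 132 and 127 CPM in labelled sperm, against 16.0 and 15.1 CPM in null and 87.4 and 91.6 CPM in injected sphere embryos. Most of this was cyp17a1, at 125 and 120 CPM in labelled sperm and 81.3 and 86 CPM in injected sphere embryos. Enveloping-layer markers were at 130 and 127 CPM in labelled sperm, against 11300 CPM in null. These markers do not settle what the labelled sperm sample is, and the part of other cells in the collagen values was not tested.

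The hydroxylase genes split in labelled sperm. p4ha1a had 0.252 and 0.181 CPM in labelled sperm, against 24.6 and 26.9 CPM in null (-6.97 ± 0.45, adjusted p = 1.09e-06). p4ha2 had 0.713 and 0.361 CPM, against 47.8 and 50.6 CPM in null (-6.60 ± 0.45, adjusted p = 1.44e-06). Also lower were p4ha3 (1.05 and 0.826 CPM), plod1 (1.49 and 1.94 CPM) and plod2 (0.210 and 0.542 CPM). p4ha1 stood instead at 128 and 127 CPM in labelled sperm, against 9.42 and 9.76 CPM in null. The log2 fold change of 3.62 ± 1.63 did not pass in the fit with both wild-type libraries (adjusted p = 0.106). It was 3.60 without wild-type library 1 and 3.62 without library 2. Those fits take their spread from the labelled sperm pair alone, so no p-value is given. plod3 did not pass, at 26.0 and 28.6 CPM in labelled sperm, against 33.0 and 32.0 CPM in null (-0.37 ± 0.37, adjusted p = 0.4).

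Among collagen genes lower in labelled sperm, col15a1b had 0.0419 and 0.0774 CPM, against 6.38 and 6.60 CPM in null (-6.84 ± 0.59, adjusted p = 5.39e-06). col10a1 on chromosome 17, col8a1a and col17a1a followed, at -5.33, -5.29 and -4.52. Among those higher, col1a1 had 2.64 and 2.48 CPM, against 0.233 and 0.189 CPM in null (3.45 ± 0.67, adjusted p = 0.00117), and 1 identifier of col19a1, ENSDARG00000096073, had 7.36 and 8.52 CPM, against 0.389 and 0.0943 CPM in null (4.82 ± 0.61, adjusted p = 7.46e-05). col7a1l ENSDARG00000069692 (3.40 ± 0.57), col23a1b (3.17 ± 0.80) and col28a2b (2.99 ± 0.71) were also higher; the calls of the last 2 ended without labelled sperm library 1 (adjusted p = 0.0628 and 0.0644), and that of col23a1b in DESeq2 (0.0502). col21a1 was at 0 counts in both null libraries and at 0.231 and 0.207 CPM in labelled sperm, at least 3.44-fold higher against a floor of 3 counts over the null group, and its call ended without labelled sperm library 2 (adjusted p = 0.111).

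In the same libraries 7 of 29 folding genes were higher and 11 lower than in null, where 30.0% of all genes were higher and 30.5% lower. The chaperone genes of the endoplasmic reticulum hspa5 and hsp90b1 rose (4.12 ± 0.56 and 4.45 ± 0.52, adjusted p = 0.000122 and 4.02e-05), while both serpinh1 genes, p3h1 and crtap fell, the last a partner of the prolyl 3-hydroxylase complex. crtap had 0.189 and 0.103 CPM in labelled sperm, against 38.6 and 36.0 CPM in null (-8.06 ± 0.74, adjusted p = 7.97e-06), and p3h1 had 0.734 and 0.516 CPM, against 50.6 and 51.6 CPM in null (-6.45 ± 0.51, adjusted p = 3.18e-06). The summed level of the 54 collagen genes was 126 and 97.1 CPM in labelled sperm, 152 and 151 CPM in injected embryos, 132 and 136 CPM in null, and 176 and 114 CPM in wild type.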

How the data were processed

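The authors deposited raw read counts per Ensembl gene for 12 libraries of total RNA, made with a stranded kit after ribosomal RNA removal, per the labels' protocols. Novoalign 2.8 and DESeq2 are named in the submitters' processing notes without a role; which counter and strand setting were used is not given in the sources used here, so antisense or overlapping genes may share reads. The table leaves out genes under a maximum of 10 counts, and 90.9% of its genes were given a symbol. Members and lists were chosen with earlier results of these data known.

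CPM is a count over the library total. Near-identical pairs of libraries (chi-square per degree of freedom under 1.5, over genes reaching 20 counts in both libraries together) were summed into 1 sample. Counts were tested in edgeR 4.0.16 (R 4.3.3) by the robust quasi-likelihood test with TMM scaling, filterByExpr and Benjamini-Hochberg adjustment over all genes at 0.05. The shield comparisons came from a fit of 5 samples with 1 residual degree of freedom (21167 genes), the others from 8 samples with 2 (22712 genes); a lone sample was assumed to vary like the groups with 2 libraries. SE is the log2 fold change over the root of F.

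In simulated data for null against wild type, 0% of 2-fold and 19% of 4-fold changes were recovered, with 1 of 20549 unchanged genes called; taking every library as a replicate called 23.6% of unchanged genes. For labelled sperm against null, the summed fit recovered 0% and 39%.

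Every library's value is given for members called among shield embryos, type I, II and IV genes, p4ha and plod genes and the 10 other members with most shield counts; for injected embryos and labelled sperm, up to 6 called members per direction are named with values, and others briefly. Alternatives were DESeq2 1.42.0, every library as a replicate, other size factors, no filter, a replicate block, each library left out and effective library sizes. Deviations of same-numbered libraries correlated at -0.02 to 0.04, and at 0.20 for wild type with labelled sperm. The numbers were not taken to pair samples. In the near-identical pairs the deviations are close to counting noise, so these correlations could not show a pairing there.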

Additional observations from a re-analysis of the deposited data

How the results depend on the processing

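RLE size factors and no filter changed no call of a named member, and on effective library sizes 72 group CPM values moved beyond the libraries' spread and 144 did not. Taking every library as a replicate called 29 members in null, 12 in maternal null and 10 in paternal null against wild type, 14 between maternal null and paternal null, 19 between null and maternal null, 12 for the interaction and 28 for injected embryos. The counts over all genes were then 6938, 1151, 1346, 1778, 6129, 3261 and 13540, against 1052, 120, 50, 104, 228, 67 and 6514 with near-identical pairs summed, in the same order. A replicate block added to that fit gave 27, 9, 3, 11, 16, 10 and 28 members. Over all genes it gave 6155, 568, 640, 1119, 5339, 2225 and 13429. The library numbers were not taken to pair the samples. The members called among shield embryos, and 13 of the 14 called in injected embryos, kept their calls in both fits. Both fits call far more genes, so a call kept there is little support. col5a2, the other member called in injected embryos, was not followed through the alternatives. DESeq2 with pairs summed called 5 members in null, 2 in maternal null and 3 between null and maternal null, and 508, 53, 5, 47, 76 and 8 genes in the 6 shield comparisons; the cause was not tested.

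Leaving out 1 library at a time gave 8 to 8 members and 924 to 1086 genes in null, 4 to 5 and 103 to 122 in maternal null, 0 to 0 and 43 to 51 in paternal null, 4 to 4 and 89 to 106 between maternal null and paternal null, 4 to 6 and 187 to 231 between null and maternal null, and 0 to 1 and 46 to 61 for the interaction. For injected embryos it gave 11 to 25 members (23 without wild-type library 1, 25 without library 2) and 4341 to 11684 genes, and for labelled sperm 17 to 40 members (17 without labelled sperm library 1, 40 without either wild-type library) and 9823 to 17268 genes. Among tested fits with a call on either side, the fold change that reversed was that of p4ha1 in injected embryos. It was 2.05 without wild-type library 1 and -1.98 without library 2. In the shield fit without wild-type library 1, which was not tested, the fold changes of p4ha1 and plod1 in null also changed sign.

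The shield fit had 1 residual degree of freedom, from wild type, and in the simulated data it recovered 0% of 2-fold changes. The 8 members called in null were not the same in every leave-one-out fit. Without null library 1, p4ha1a and col10a1 on chromosome 20 lost their calls, and p4ha1 and col16a1 gained calls. Without a wild-type library the shield fit keeps no residual degree of freedom, and its fold changes were not tested, so the shield ranges cover mutant libraries alone. Those libraries form near-identical pairs, so the shield ranges reflect depth more than the spread between samples. The fit of all groups then takes its spread from the labelled sperm pair alone, and its counts of calls measure against that pair. Without a labelled sperm library that spread comes from wild type alone. Low members rest on few counts.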
